A study of Mus musculus with 2 samples.

Results

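The 8 genes described here, of 32285 counted, encode ligands and receptors through which antigen-presenting cells license or restrain T cells: Cd274 (PD-L1), Pdcd1lg2 (PD-L2), Cd80, Cd86, Cd40, Icosl, Lgals9 (galectin-9) and Pvr (CD155). The set is defined by gene name, with no measured value in its definition. Each was counted in barcodes taken by simple count rules, called gates below: Flt3+ H2-Aa+ barcodes (Flt3 above 0 and at least 10 UMIs of H2-Aa, a rule meant for conventional dendritic cells, cDCs), Lyz2+ C1qa- barcodes (at least 5 UMIs of Lyz2 and none of C1qa, meant for monocytes), C1q macrophages (at least 5 UMIs of C1qa and C1qb together), B cells (Cd79a and Ms4a1 above 0) and neutrophils (at least 20 UMIs of S100a8 and S100a9 together). A UMI (unique molecular identifier) marks 1 captured RNA molecule, and a level is given as UMIs per 1000000 UMIs of the gate (CPM).

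The study used C57BL/6 mice with the wild type Ptpn22 allele (PEP-WT) or with the pro-autoimmune R619W allele on both chromosomes (PEP-619WW), which was made by CRISPR/Cas9 editing and changes the phosphatase PEP. Mice of 6 to 12 weeks received 1000000 plaque-forming units of LCMV-cl13, a virus strain that persists in mice. By the study's account both genotypes were infected, so that no value from uninfected animals is compared here. At day 8 after infection the splenocytes of 4 to 5 age-matched and sex-matched mice per genotype were pooled, sorted for live CD45+ cells and measured by 10x Genomics 3' single-cell RNA sequencing. The deposited sample labels name liver, the Jurkat line and tumor-infiltrating cells instead. Tissue and infection are thus the study's account and were not tested in either run, also not in run 2, whose content differed (below). Each genotype has 2 count tables, run 1 and run 2, whose relation to each other is not stated. The runs are therefore kept apart, and each comparison rests on 1 library per genotype with no replicate. No p-value is given. Intervals are exact 95% Poisson intervals for a level and exact conditional intervals for a ratio of PEP-619WW over PEP-WT. They cover counting error only, not the spread between cells or between mice. A ratio was called where it passed 1.5-fold, its interval lay on 1 side of 1 and both genotypes together held at least 20 UMIs.

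The 4 libraries held 8576 to 14821 barcodes and 55504449 to 77916082 UMIs, and pairs of libraries shared 19 to 49 barcode sequences. Run 1 held 14821 and 8576 barcodes and run 2 9539 and 11029, PEP-WT first. The barcode numbers of the second run equal the cell numbers given in the methods of the study, and those of the first do not. The runs differed in content. Run 2 held UMIs of the melanocyte gene Dct (61.6 and 10.5 CPM in the macrophage gate, PEP-WT first), Folr2+ macrophages (158 and 70.6 CPM, against 0 and 0.245 CPM in run 1) and almost no PEP-WT B cells (2 barcodes against 503), so no B cell ratio exists in run 2. In run 1, 179 of 274 Flt3+ H2-Aa+ barcodes in PEP-WT and 110 of 176 in PEP-619WW also met the B cell rule, and Zbtb46, a defining transcription factor of cDCs, stood at only 8.63 and 7.52 CPM there, beside 536 and 470.3 CPM of Cd79a. This goes against the name cDC, so the gate is called by its rule. In run 2 the same gate held 29.5 and 50.2 CPM of Zbtb46 and 705 and 615 CPM of Ccr7. Of the Lyz2+ C1qa- barcodes of run 1, 444 of 1069 and 464 of 838 also met the neutrophil rule, with 85.7 and 170.0 CPM of the neutrophil gene Ly6g, so this gate too is called by its rule. Where the interval of a ratio lay on 1 side of 1 in a gate and held 1 in barcodes of exactly 1 gate, the second value is given too.

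CD80 and CD86 on antigen-presenting cells bind CD28 on T cells, which adds the second signal for activation, and also CTLA-4, which withholds it. PD-L1 and PD-L2 bind PD-1 and dampen T cells, and PD-L1 is induced by interferons and carried by many cell types during chronic LCMV infection. CD40 receives help from CD40L on CD4 T cells and drives dendritic cell and B cell maturation, ICOSL binds ICOS and sustains follicular helper T cells, galectin-9 binds TIM-3 among other partners, and CD155 binds the activating receptor DNAM-1 and the inhibitory receptor TIGIT. The study asked whether the Ptpn22 allele alters PD-L1 and CD86 on dendritic cell subsets, measured as protein by flow cytometry. In infected PEP-619WW mice it reported less PD-L1 on CD8a- and CD8a+ cDCs and more CD86 on CD8a- cDCs. The counts here are of RNA in 5 gates, of which only the Flt3+ H2-Aa+ gate was meant for dendritic cells.

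Cd274 (chr19:29367455-29388095, plus strand, GRCm38) and Pdcd1lg2 (chr19:29410919-29471161, plus strand) lie next to each other, and Cd80 (chr16:38455561-38496335, plus strand) and Cd86 (chr16:36603869-36666081, minus strand) share chromosome 16. Cd40 lies at chr2:165055627-165072948 and Icosl at chr10:78069302-78083913, both on the plus strand, and Lgals9 lies at chr11:78962974-78984946 and Pvr at chr7:19903578-19921160, both on the minus strand. RefSeq start-site windows of 300 bases (GRCm38.p6) were found for 5 of the 8 genes, and 3 are shown, because the neighbours Cd274 and Pdcd1lg2 stood on different sides of a ratio of 1 in B cells and Lgals9 was among the genes that stood lower across the gates of run 1. Capitals mark a match to the core of the interferon-stimulated response element (GAAANNGAA, here found on the opposite strand) or, in Pdcd1lg2, to the kappa-B consensus.
Cd274, chr19:29367188-29367487, plus strand: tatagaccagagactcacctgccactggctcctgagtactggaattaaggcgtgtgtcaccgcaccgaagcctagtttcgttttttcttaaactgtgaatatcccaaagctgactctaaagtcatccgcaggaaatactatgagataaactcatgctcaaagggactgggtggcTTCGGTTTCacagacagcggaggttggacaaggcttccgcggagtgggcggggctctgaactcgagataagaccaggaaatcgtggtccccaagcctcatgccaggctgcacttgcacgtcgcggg
Pdcd1lg2, chr19:29410669-29410968, plus strand: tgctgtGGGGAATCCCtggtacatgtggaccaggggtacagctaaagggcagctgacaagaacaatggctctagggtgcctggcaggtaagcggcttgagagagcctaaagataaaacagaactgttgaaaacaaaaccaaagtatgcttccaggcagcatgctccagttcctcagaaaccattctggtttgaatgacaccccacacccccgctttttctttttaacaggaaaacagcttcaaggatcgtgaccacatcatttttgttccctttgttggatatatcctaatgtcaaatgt
Lgals9, chr11:78984875-78985174, minus strand: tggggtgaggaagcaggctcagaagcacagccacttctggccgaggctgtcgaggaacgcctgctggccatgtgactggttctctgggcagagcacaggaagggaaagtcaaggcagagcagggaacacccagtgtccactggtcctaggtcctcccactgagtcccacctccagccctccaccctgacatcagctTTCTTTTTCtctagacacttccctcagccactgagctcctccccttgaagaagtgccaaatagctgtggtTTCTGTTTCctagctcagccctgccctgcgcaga
Both strands were searched for 3 motifs. The interferon element core began at -76 from the start in Cd274 and at -54 and 17 in Lgals9, and 8.56% of 32851 such windows of the genome held it. The kappa-B match stood at -244 in Pdcd1lg2, with another at -111 in Icosl, and 8.46% of windows held one. Cd80 held none of the 3, and the gamma-interferon site TTCNNNGAA, present in 8.30% of windows, was found in none of the 5 genes. No match overlapped another. A match describes these letters only.

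In run 1, the 11 of 40 pairs of member and gate whose ratio was called all stood lower in the PEP-619WW library. Cd86, Cd40 and Lgals9 were called lower in the Flt3+ H2-Aa+ gate, among 8 members tested, where 5.83% of 10572 genes were called lower and 4.7% higher. Cd86 alone was called lower in the Lyz2+ C1qa- gate, beside 6.74% lower and 4.08% higher over 11281 genes. Cd86 and Cd40 were called lower in macrophages, where the shares were 5.43% lower and 3.87% higher. In B cells Pdcd1lg2 and Cd40 were called lower, beside 3.75% lower and 5.55% higher. Neutrophils had 3 members called lower, Cd86, Cd40 and Lgals9, where 8.5% of genes were called lower and 3.63% higher. No member was called higher in any gate of run 1. The median log2 ratio of the 8 members was -0.57, -0.26, -0.18, -0.43 and -0.51 in the Flt3+ H2-Aa+, Lyz2+ C1qa-, macrophage, B cell and neutrophil gates, and that of all genes tested was -0.05, -0.10, -0.02, 0.02 and -0.11. The hemoglobin gene Hbb-bt, an erythroid marker, moved with the genotype in run 1: its levels were 307 and 45.7 CPM in the Flt3+ H2-Aa+ gate, 383 and 287 CPM in the Lyz2+ C1qa- gate, 325 and 75.7 CPM in macrophages, 521 and 77.5 CPM in B cells and 508 and 285 CPM in neutrophils, PEP-WT first. Without barcodes carrying Hbb-bt, a setting added after seeing the data, 11 pairs were again called lower, but Lgals9 in the Flt3+ H2-Aa+ gate (log2 ratio -0.51), Cd86 in the Lyz2+ C1qa- gate (-0.51) and Cd40 in macrophages (-0.56) were no longer among them. The last 2 were also lost under several other settings. Cd86 in the Flt3+ H2-Aa+ gate was lost with stricter gates (ratio 0.735), Cd40 there when the share of UMIs was averaged over barcodes (0.736), and Lgals9 in neutrophils without the 5% deepest barcodes (0.724). The calls of Pdcd1lg2 and Cd40 in B cells, Cd86 in macrophages and Cd40 in neutrophils were lost under no single setting that kept the fold limit. In neutrophil barcodes of no other gate, without the barcode richest in Cd40 in each library, Cd40 gave 0.189 (0.0352 to 0.659). It was not called there because it fell under the UMI minimum.

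**Figure D1:**
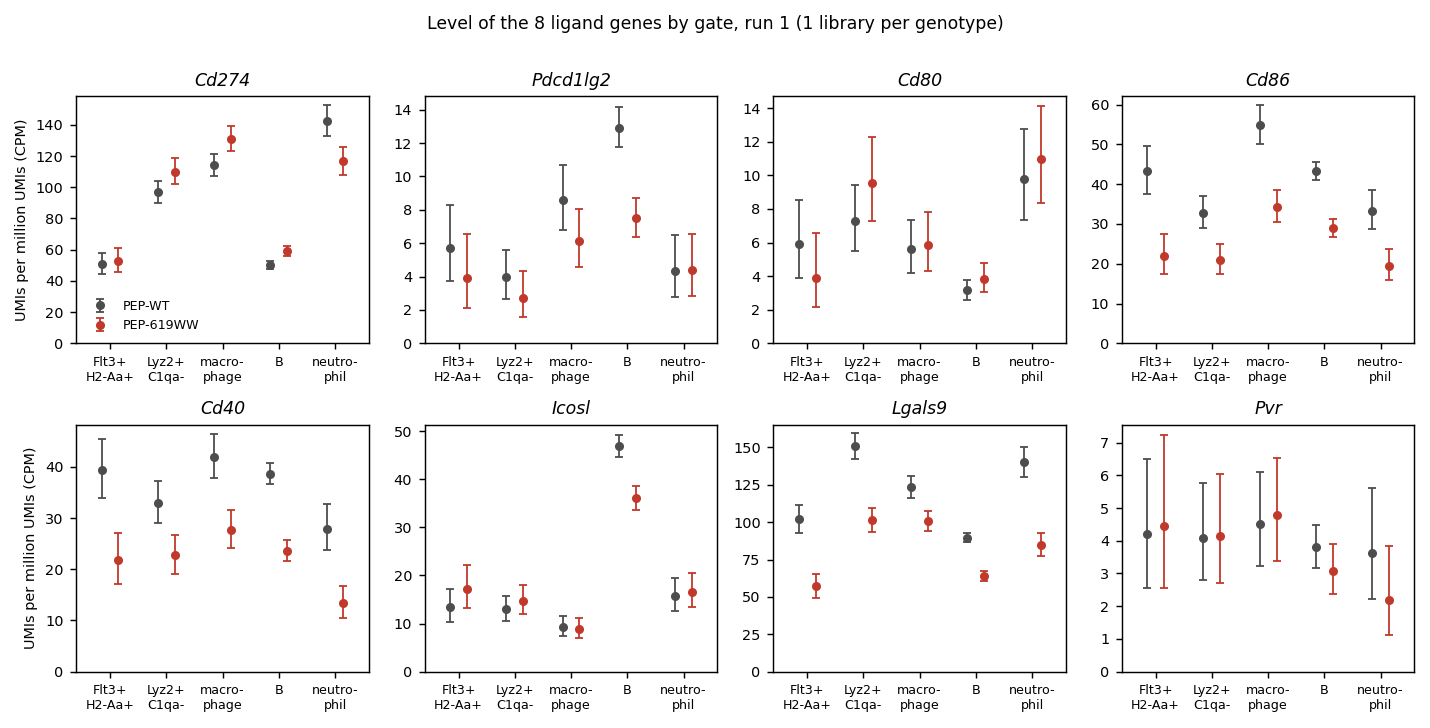
Levels in CPM (vertical axis, linear, from 0) of the 8 genes in 5 gates of run 1, PEP-WT in grey and PEP-619WW in red, with exact 95% Poisson intervals. Cd86, Cd40 and Lgals9 lay lower in PEP-619WW in every gate with intervals that do not overlap, while Cd274 lay within 1.5-fold throughout. The gates share barcodes, and the share of all genes with separate intervals was not taken.

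In run 2 the 13 called pairs, of 32, all stood higher in the PEP-619WW library, as did many other genes. None of the 8 members was called in the Flt3+ H2-Aa+ gate, where 2.33% of 9749 genes were called lower and 12.8% higher. Pdcd1lg2, Cd40 and Icosl were called higher in the Lyz2+ C1qa- gate, beside 5.91% lower and 20.6% higher. In macrophages 6 of 8 were called higher, all but Cd274 and Cd40, where the shares over 13170 genes were 12% lower and 18.9% higher. In neutrophils Cd274, Pdcd1lg2, Icosl and Pvr were called higher, beside 10.4% lower and 22.5% higher. Median log2 ratios of the members were 0.31, 0.50, 0.89 and 0.64 in the Flt3+ H2-Aa+, Lyz2+ C1qa-, macrophage and neutrophil gates, and those of all genes were 0.34, 0.24, 0.11 and 0.21, so the Flt3+ H2-Aa+ members sat at the centre of all genes and the macrophage members above it. Markers of other cells moved with the genotype in the run 2 macrophage gate: the summed macrophage markers were 12574 and 8320.0 CPM, those of monocytes 6749 and 10096 CPM and those of cDCs 1090.4 and 3423 CPM, with none of the 8, 5 and 10 genes at 0, and their part in the ratios was not tested. In macrophage barcodes of no other gate the same 6 members were called higher, where 11.5% of all genes were called lower and 17.4% higher, with ratios from 1.64 for Pvr to 3.20 for Pdcd1lg2. Divided by the median ratio of all genes, Pdcd1lg2 in Lyz2+ C1qa- barcodes (1.39) and Cd274 in neutrophils (1.30) were no longer called, and averaged over barcodes Icosl in neutrophils was not (1.37).

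**Figure D2:**
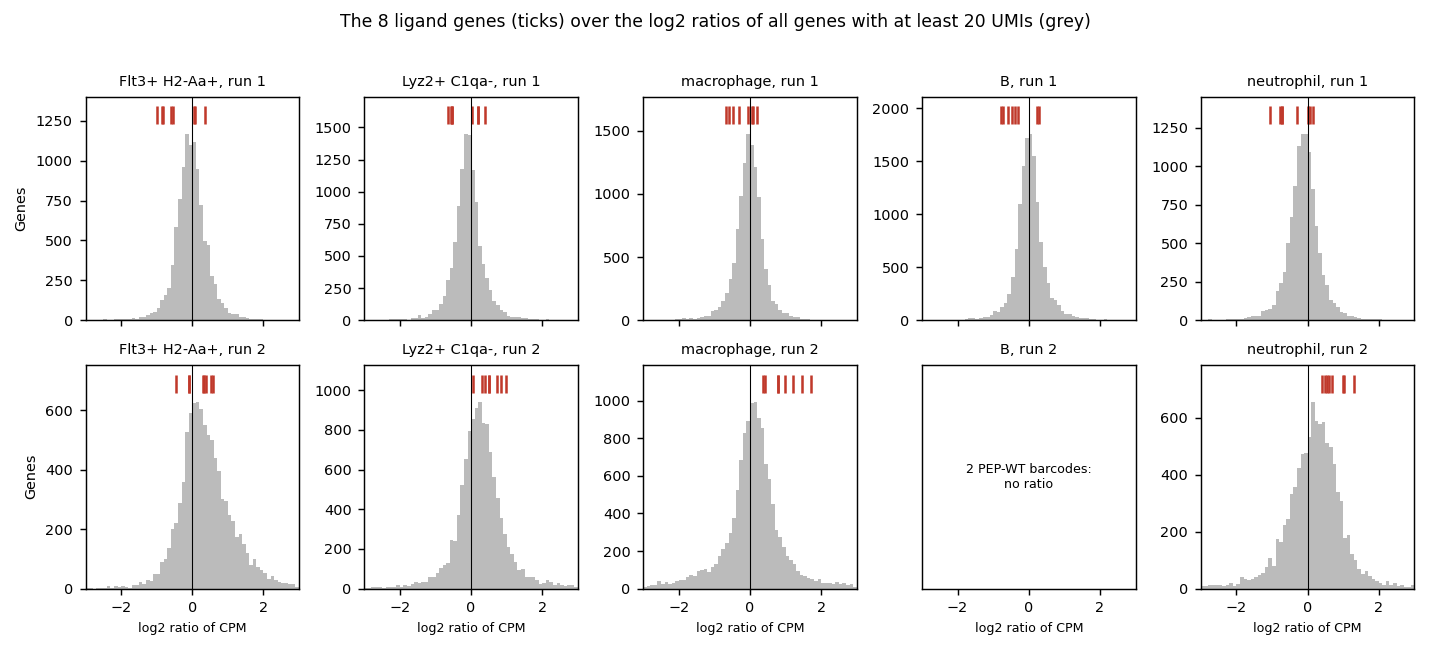
Ticks mark the log2 ratios (PEP-619WW over PEP-WT, horizontal axis) of the 8 ligand genes above the histogram of all genes with at least 20 UMIs, by gate and run. The run 1 ticks reach below the centre of the grey distribution in every gate, and the run 2 macrophage ticks, with a median of 0.89, lie above that of all genes at 0.11.

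Cd86, the CD28 ligand that resting antigen-presenting cells already carry, was, with Cd40 and Lgals9, lower in the PEP-619WW library in every gate of run 1. In the Flt3+ H2-Aa+ gate it stood at 43.4 CPM (37.6 to 49.7, 206 UMIs) in PEP-WT and 22.0 CPM (17.4 to 27.4, 79 UMIs) in PEP-619WW. Macrophages held 54.8 CPM (50.1 to 59.9, 499 UMIs) in PEP-WT and 34.3 CPM (30.4 to 38.5, 280 UMIs) in PEP-619WW, and B cells held 43.2 CPM (41.1 to 45.5, 1538 UMIs) in PEP-WT and 29.0 CPM (26.8 to 31.4, 624 UMIs) in PEP-619WW. The level intervals of the genotypes did not overlap in any of the 5 gates. These gates share barcodes, and the share of all genes with separate intervals was not taken. The ratios were 0.508 (0.387 to 0.661) in the Flt3+ H2-Aa+ gate, 0.638 (0.514 to 0.790) in Lyz2+ C1qa- barcodes (32.8 and 21.0 CPM), 0.625 (0.538 to 0.725) in macrophages, 0.671 (0.610 to 0.736) in B cells, just inside 1.5-fold, and 0.586 (0.457 to 0.747) in neutrophils (33.4 and 19.5 CPM). In barcodes of exactly 1 gate the ratio was 0.626 (0.504 to 0.774) in macrophages and 0.684 (0.613 to 0.762) in B cells. It was 0.866 (0.623 to 1.19) in Lyz2+ C1qa- barcodes, 0.727 (0.328 to 1.57) in neutrophils and 0.686 (0.394 to 1.18) in the 52 and 43 Flt3+ H2-Aa+ barcodes left. These last 3 intervals reached past 1, from 175, 31 and 60 UMIs in that order, and were not called. Each also held the ratio of its whole gate, so a changed ratio and a loss of counts cannot be told apart. The Flt3+ H2-Aa+ barcodes outside the B cell gate, 95 and 66, gave 0.510 (0.335 to 0.760).

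In run 2, Cd86 was lower in the PEP-619WW Flt3+ H2-Aa+ gate as well, at 164 CPM (129.8 to 205, 78 UMIs) in PEP-WT and 119 CPM (109 to 129, 571 UMIs) in PEP-619WW, a ratio of 0.725 (0.571 to 0.930), where the median gene stood higher in PEP-619WW. This was the only pair of member and gate whose interval lay below 1 in both runs. Cd274 in macrophages lay above 1 in both, at 1.15 (1.06 to 1.25) and 1.35 (1.26 to 1.44). In run 1 macrophage barcodes of no other gate it gave 1.03 (0.911 to 1.16). The share of all genes with such intervals was not taken, and the content of the Flt3+ H2-Aa+ gate differed between the runs. Hbb-bt in the run 2 Flt3+ H2-Aa+ gate stood at 983 and 0.417 CPM, and without barcodes carrying it the log2 ratio of Cd86 was -0.39. Without the barcode richest in Cd86 in each library the run 2 ratio was 0.772 (0.601 to 1.004), so that its interval held 1. In Flt3+ H2-Aa+ barcodes of no other gate the run 2 ratio was 0.802 (0.600 to 1.09). In the other 3 gates of run 2 the order was the reverse of run 1. Macrophages held 35.6 CPM (34.1 to 37.2, 2077 UMIs) in PEP-WT and 70.9 CPM (66.8 to 75.1, 1124 UMIs) in PEP-619WW, with a ratio of 1.99 (1.85 to 2.14). Lyz2+ C1qa- barcodes held 66.0 and 80.8 CPM, a ratio of 1.22 (1.08 to 1.397), and neutrophils 30.2 and 44.0 CPM, a ratio of 1.46 (1.09 to 1.98), which was 0.953 (0.494 to 1.91) in barcodes of the neutrophil gate alone. Within run 2 the Flt3+ H2-Aa+ gate had the highest Cd86 level in both libraries, followed by the Lyz2+ C1qa- gate and macrophages. In run 1, with every barcode kept, macrophages had the highest level in PEP-WT and overlapped with B cells in PEP-619WW. In run 1 barcodes of exactly 1 gate, the Flt3+ H2-Aa+ level was 62.3 CPM in PEP-WT and 42.8 CPM in PEP-619WW. Macrophages held 58.4 and 36.5 CPM there, and the 2 gates overlapped in both libraries.

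Cd80, the second CD28 ligand, which is induced on activation, was a low-count gene in run 1 and no ratio was called in the 5 gates. Its levels ran from 3.15 CPM in PEP-WT B cells (112 UMIs) to 10.96 CPM in PEP-619WW neutrophils (60 UMIs). The ratios lay between 0.662 (0.322 to 1.30) in the Flt3+ H2-Aa+ gate and 1.31 (0.899 to 1.92) in the Lyz2+ C1qa- gate, with every interval holding 1. In run 2 the same gene was better covered. It stood at 6.78 CPM (6.13 to 7.48, 395 UMIs) in PEP-WT and 18.5 CPM (16.5 to 20.8, 294 UMIs) in PEP-619WW in macrophages, a ratio of 2.73 (2.34 to 3.19), and at 44.2 and 54.0 CPM in the Flt3+ H2-Aa+ gate, a ratio of 1.22 (0.782 to 2.01). Lyz2+ C1qa- barcodes and neutrophils gave 1.43 (1.15 to 1.79) and 1.41 (1.11 to 1.80), inside 1.5-fold, and neutrophil barcodes of no other gate 1.02 (0.756 to 1.398). Of the 4 gates with a ratio in run 2, macrophages were the lowest for Cd80 in both libraries, and neutrophils and Flt3+ H2-Aa+ barcodes, the highest, overlapped. PEP-619WW B cells stood at 16.5 CPM (10.8 to 24.2, 26 UMIs), overlapping macrophages. In barcodes of exactly 1 gate they held 3.61 CPM (0.745 to 10.6, 3 UMIs), below the 16.2 CPM (14.1 to 18.5) of macrophages.

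The run 2 macrophage gates differed in Folr2, and the macrophage ratios of Cd86, Cd80 and Pdcd1lg2 are also given within Folr2+ and Folr2- barcodes. Cd86 gave 2.05 (1.79 to 2.35) among 2612 PEP-WT and 454 PEP-619WW Folr2+ barcodes and 1.74 (1.59 to 1.91) among 3227 and 1514 Folr2- barcodes. Cd80 gave 1.98 (1.43 to 2.69) and 2.76 (2.27 to 3.37), and Pdcd1lg2 2.74 (1.94 to 3.81) and 2.52 (2.13 to 2.997). All 3 were higher in PEP-619WW on both sides of the split. The share over all genes was not taken within the split, and in the whole gate 18.9% were called higher. The part of Folr2 in the ratios was not tested.

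**Figure D3:**
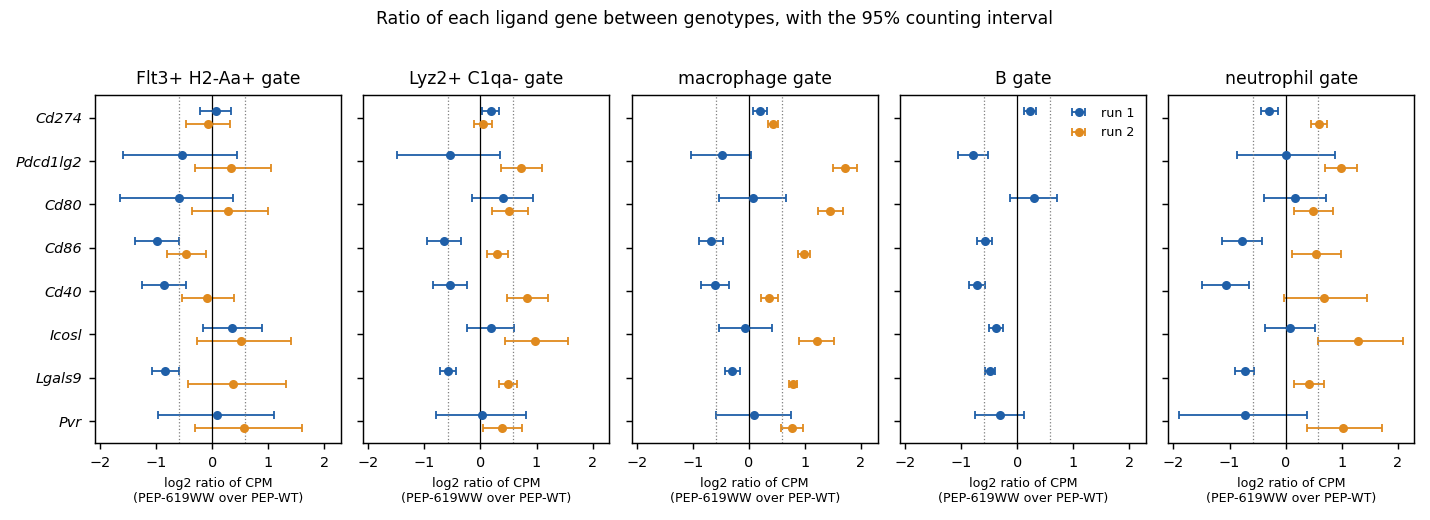
Log2 ratio of CPM (PEP-619WW over PEP-WT, horizontal axis) of each gene by gate, with the exact 95% counting interval, run 1 in blue and run 2 in orange, dotted lines at 1.5-fold. The whole intervals of the runs lie on opposite sides of 0 for Cd86 and Lgals9 in 3 gates, for Cd40 in 2 and for Cd274 in neutrophils. Cd86 in the Flt3+ H2-Aa+ gate lies below 0 in both, and Cd274 in macrophages above 0 in both. The share of all genes with such intervals was not taken.

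Cd274, which encodes PD-L1, stayed within 1.5-fold between the genotypes in every gate of run 1, while its level differed between gates. Neutrophils held 142 CPM (133 to 153, 786 UMIs) in PEP-WT and 117 CPM (108 to 126, 639 UMIs) in PEP-619WW, a ratio of 0.819 (0.737 to 0.910). Macrophages held 114 CPM (107 to 121, 1037 UMIs) in PEP-WT and 131 CPM (123 to 139, 1071 UMIs) in PEP-619WW, a ratio of 1.15 (1.06 to 1.25). Lyz2+ C1qa- barcodes stood at 96.8 and 110.1 CPM, with a ratio of 1.14 (1.02 to 1.26). The Flt3+ H2-Aa+ gate, at 50.7 and 52.9 CPM, and B cells, at 50.1 and 58.9 CPM, were the lowest and overlapped each other in both libraries, with ratios of 1.04 (0.858 to 1.27) and 1.18 (1.09 to 1.26). In PEP-WT neutrophils, macrophages and Lyz2+ C1qa- barcodes followed in that order with separate intervals, and in PEP-619WW macrophages came first and each of the 3 overlapped its neighbour in the order. In neutrophil barcodes of no other gate, Cd274 stood at 259.8 and 174 CPM, a ratio of 0.671 (0.546 to 0.823) that falls just short of 1.5-fold and was 0.662 (0.537 to 0.815), called lower, without the barcode richest in Cd274 in each library. In macrophage and Lyz2+ C1qa- barcodes of no other gate the ratios were 1.03 (0.911 to 1.16) and 1.15 (0.956 to 1.38).

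In run 2 neutrophils had the most Cd274, 259.8 CPM (238 to 283, 542 UMIs) in PEP-WT and 391 CPM (371 to 411, 1516 UMIs) in PEP-619WW, and the ratio of 1.503 (1.36 to 1.66) was called at the limit. In neutrophil barcodes of no other gate the levels were 531 and 577 CPM and the ratio 1.09 (0.966 to 1.22). The summed markers of macrophages in the run 2 neutrophil gate were 6966 and 2013 CPM, and their part in the Cd274 ratio was not tested. The Flt3+ H2-Aa+ gate held 128 and 121 CPM, Lyz2+ C1qa- barcodes 95.5 and 98.6 CPM and macrophages 56.8 and 76.5 CPM. Their ratios, in the same order, were 0.944 (0.725 to 1.25), 1.03 (0.927 to 1.15) and 1.35 (1.26 to 1.44), none past 1.5-fold.

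Pdcd1lg2, which encodes PD-L2, had 55.5% of its PEP-WT UMIs and 42.9% of its PEP-619WW UMIs of run 1 in the B cell gate. T cell barcodes were those with Cd3e and Cd3g above 0 and no UMI of Cd79a, C1qa or Flt3. Their Pdcd1lg2 level was higher than in any of the 5 gates, at 19.4 and 13.9 CPM, a ratio of 0.717 (0.550 to 0.931). B cells held 12.9 CPM (11.8 to 14.2, 460 UMIs) in PEP-WT and 7.48 CPM (6.37 to 8.73, 161 UMIs) in PEP-619WW, and the ratio of 0.579 (0.480 to 0.694) was called. B cells of no other gate gave 0.588 (0.480 to 0.717). Its neighbour Cd274 stood on the other side of 1 in the same B cells, at 1.18 (1.09 to 1.26). The other gates of run 1 held 14 to 78 UMIs per library, and neighbours in the order of levels overlapped, with ratios from 0.684 (0.355 to 1.28) in Lyz2+ C1qa- barcodes to 1.01 (0.548 to 1.85) in neutrophils. Outside the neutrophil gate the Lyz2+ C1qa- ratio was 0.309 (0.0921 to 0.826), called lower from 24 and 5 UMIs, and in barcodes of exactly 1 gate 0.293 (0.0550 to 1.01). With the share of UMIs averaged over barcodes, which has no counting interval, Pdcd1lg2 was instead called higher in the whole Lyz2+ C1qa- and neutrophil gates.

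In run 2 Pdcd1lg2 was highest in neutrophils, at 64.2 CPM (53.8 to 76.1, 134 UMIs) in PEP-WT and 127 CPM (116 to 139, 494 UMIs) in PEP-619WW, a ratio of 1.98 (1.63 to 2.42), and of 1.51 (1.21 to 1.89) in barcodes of that gate alone. Macrophages held 6.76 CPM (6.11 to 7.46, 394 UMIs) in PEP-WT and 22.1 CPM (19.9 to 24.6, 351 UMIs) in PEP-619WW, and their ratio of 3.27 (2.83 to 3.79) was the largest of any member and gate. Lyz2+ C1qa- barcodes held 16.9 and 27.7 CPM, a ratio of 1.64 (1.28 to 2.14), which was 1.46 (1.12 to 1.92) outside the neutrophil gate, no longer past the limit, and 1.504 (1.12 to 2.06), just past it, in barcodes of exactly 1 gate. The Flt3+ H2-Aa+ gate held 44.2 and 55.6 CPM, overlapping neutrophils in PEP-WT only, a ratio of 1.26 (0.807 to 2.07). The 503 PEP-619WW B cells stood at 29.2 CPM (46 UMIs), with no PEP-WT value to set against it.

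**Figure D4:**
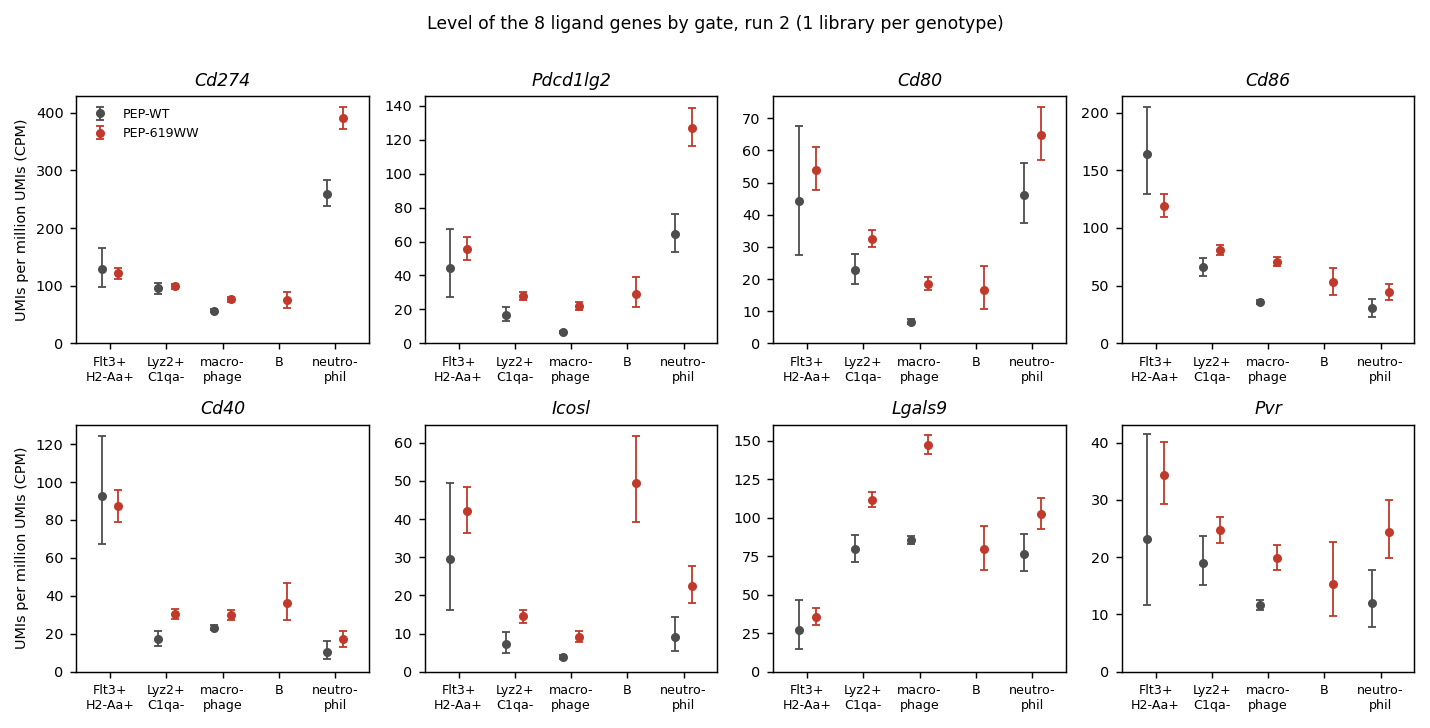
Levels in CPM (vertical axis, linear, from 0) of the 8 genes in run 2, PEP-WT in grey and PEP-619WW in red, with exact 95% Poisson intervals, and no PEP-WT point in the B cell gate, which held 2 barcodes. In both libraries neutrophils carried the most Cd274 and the Flt3+ H2-Aa+ gate the most Cd86 and Cd40, and the neutrophil level of Pdcd1lg2 overlapped that of the Flt3+ H2-Aa+ gate in PEP-WT.

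Cd40, the receptor through which CD4 T cell help reaches antigen-presenting cells, was lower in PEP-619WW in each gate of run 1. The Flt3+ H2-Aa+ gate held 39.4 CPM (33.9 to 45.4, 187 UMIs) in PEP-WT and 21.7 CPM (17.2 to 27.1, 78 UMIs) in PEP-619WW, a ratio of 0.552 (0.418 to 0.723). B cells held 38.7 CPM (36.6 to 40.8, 1375 UMIs) in PEP-WT and 23.6 CPM (21.6 to 25.7, 507 UMIs) in PEP-619WW, a ratio of 0.609 (0.549 to 0.675). Neutrophils showed the lowest ratio, 0.477 (0.356 to 0.635), from 27.9 and 13.3 CPM. Macrophages (42.0 and 27.7 CPM) and Lyz2+ C1qa- barcodes (33.0 and 22.7 CPM) gave 0.659 (0.557 to 0.779) and 0.689 (0.558 to 0.848), the second inside the limit. Without barcodes carrying a Cd3 gene the macrophage ratio was 0.812 and no longer called. In barcodes of exactly 1 gate the B cell ratio was 0.597 (0.530 to 0.672) and the macrophage ratio 0.610 (0.479 to 0.774), while Lyz2+ C1qa- barcodes gave 0.752 (0.548 to 1.02). Neutrophil barcodes of no other gate held 19 of 154 UMIs of that gate in PEP-WT and 4 of 73 in PEP-619WW, a ratio of 0.212 (0.0524 to 0.638), so most neutrophil gate UMIs of Cd40 came from barcodes that met another rule too.

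In run 2, Cd40 was highest in the Flt3+ H2-Aa+ gate, at 92.6 and 87.3 CPM, and the interval of its ratio, 0.943 (0.690 to 1.32), held 1. Lyz2+ C1qa- barcodes held 17.1 CPM (13.4 to 21.5, 72 UMIs) in PEP-WT and 30.4 CPM (28.0 to 33.0, 581 UMIs) in PEP-619WW, a called ratio of 1.78 (1.39 to 2.30). Macrophages stood at 23.2 and 29.9 CPM, with a ratio of 1.29 (1.16 to 1.43), and neutrophils at 10.5 and 17.0 CPM from 22 and 66 UMIs. Over the gates and genotypes of each run the log2 levels of Cd40 and Cd86 followed each other most closely of all 28 member pairs in run 1 (r = 0.92 over 10 profiles), and gave r = 0.88 over 9 profiles in run 2, where Pdcd1lg2 with Cd80 (r = 0.93) and Cd274 with Pdcd1lg2 (r = 0.89) were closer. These profiles share libraries and some barcodes and are a description only.

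Icosl, the ligand of ICOS, had 79.9% of its PEP-WT UMIs and 72.7% of its PEP-619WW UMIs of run 1 in the B cell gate. B cells held 46.9 CPM (44.7 to 49.2, 1668 UMIs) in PEP-WT and 36.0 CPM (33.5 to 38.6, 775 UMIs) in PEP-619WW, above every other gate, and the ratio of 0.768 (0.704 to 0.837) stayed inside 1.5-fold. The other 4 gates held 9.34 to 15.8 CPM in PEP-WT and 8.94 to 17.3 CPM in PEP-619WW, and each ratio interval held 1. In run 2 Icosl was higher in PEP-619WW in 3 gates. Macrophages held 3.91 CPM (3.42 to 4.46, 228 UMIs) in PEP-WT and 9.08 CPM (7.66 to 10.7, 144 UMIs) in PEP-619WW, a ratio of 2.32 (1.87 to 2.87). Lyz2+ C1qa- barcodes held 7.36 and 14.5 CPM, a ratio of 1.97 (1.35 to 2.95), and neutrophils 9.11 and 22.4 CPM, a ratio of 2.46 (1.49 to 4.28), which in neutrophil barcodes of no other gate was 1.72 (0.937 to 3.38). Its PEP-WT level was highest in the Flt3+ H2-Aa+ gate (29.5 CPM), and in PEP-619WW its 42.1 CPM overlapped the 49.5 CPM of B cells.

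Lgals9, which encodes the secreted lectin galectin-9, was lower in PEP-619WW in all 5 gates of run 1. With every barcode kept, the lowest ratios were in the Flt3+ H2-Aa+ gate and neutrophils. In the Flt3+ H2-Aa+ gate it stood at 102 CPM (93.0 to 111, 484 UMIs) in PEP-WT and 57.1 CPM (49.6 to 65.5, 205 UMIs) in PEP-619WW, a ratio of 0.561 (0.474 to 0.661). Neutrophils held 140.0 CPM (130.3 to 150.2, 772 UMIs) in PEP-WT and 84.6 CPM (77.0 to 92.6, 463 UMIs) in PEP-619WW, a ratio of 0.604 (0.537 to 0.679). Lyz2+ C1qa- barcodes (151 and 101 CPM), B cells (89.7 and 64.2 CPM) and macrophages (123 and 101 CPM) gave 0.671 (0.609 to 0.740), 0.715 (0.671 to 0.762) and 0.815 (0.744 to 0.893), all inside 1.5-fold with every barcode kept. A single barcode gave 110 of the 637 PEP-619WW UMIs of the Lyz2+ C1qa- gate. Without the barcode richest in Lgals9 in each library, a setting added after seeing the data, the Lyz2+ C1qa- ratio was 0.578 (0.520 to 0.641) and called lower, and those of B cells and macrophages were 0.675 (0.632 to 0.721) and 0.797 (0.726 to 0.875). The Flt3+ H2-Aa+ and neutrophil ratios were then 0.518 (0.432 to 0.618) and 0.650 (0.576 to 0.732), so Lyz2+ C1qa- barcodes stood below neutrophils. In barcodes of exactly 1 gate the neutrophil ratio was 0.512 (0.390 to 0.669) and the Flt3+ H2-Aa+ ratio 0.481 (0.320 to 0.711), whereas macrophages gave 0.929 (0.813 to 1.06) and Lyz2+ C1qa- barcodes 0.899 (0.779 to 1.04). Several of these values rest on 1 barcode: without the richest one in each library they were 0.786 (0.575 to 1.07) in neutrophils and 0.642 (0.397 to 1.03) in the Flt3+ H2-Aa+ gate, no longer called, 0.902 (0.784 to 1.04) in macrophages, and 0.631 (0.532 to 0.746) in Lyz2+ C1qa- barcodes, called lower. Outside these gates, T cell barcodes held 83.5 and 89.0 CPM, a ratio of 1.07 (0.953 to 1.19). Barcodes of no gate held 4791 of the 9812 Lgals9 UMIs in PEP-WT and 2955 of 5569 in PEP-619WW, at 162 and 125 CPM, a ratio of 0.774 (0.739 to 0.811) that was not called.

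In run 2 Lgals9 was higher in PEP-619WW in 3 gates. Macrophages held 85.6 CPM (83.2 to 88.0, 4987 UMIs) in PEP-WT and 147 CPM (141 to 153, 2337 UMIs) in PEP-619WW, a ratio of 1.72 (1.64 to 1.81) that was called, and of 2.26 (2.09 to 2.44) and 1.58 (1.48 to 1.70) within the Folr2+ and Folr2- barcodes. Lyz2+ C1qa- barcodes (79.5 and 112 CPM) and neutrophils (76.7 and 102 CPM) gave 1.403 (1.25 to 1.58) and 1.33 (1.11 to 1.61), and neutrophil barcodes of no other gate 1.36 (0.985 to 1.90). In T cell barcodes the gene was called higher, at 3.04 (1.03 to 14.8), from 3 and 312 UMIs. Of the gates compared, the Flt3+ H2-Aa+ gate had the lowest level in both libraries, 27.4 and 35.6 CPM, where in run 1 the B cells were lowest in PEP-WT and overlapped with the Flt3+ H2-Aa+ gate in PEP-619WW.

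Pvr, the CD155 gene, was sparse in run 1, with 12 to 135 UMIs per gate and library, levels of 2.19 to 4.77 CPM, neighbouring gates in the order of levels overlapping in both libraries and every ratio interval holding 1. In run 2 it stood at 11.6 CPM (10.7 to 12.5, 676 UMIs) in PEP-WT and 19.9 CPM (17.7 to 22.2, 315 UMIs) in PEP-619WW in macrophages, a ratio of 1.71 (1.49 to 1.96). Neutrophils held 11.98 and 24.5 CPM, a ratio of 2.04 (1.30 to 3.31), and Lyz2+ C1qa- barcodes 19.0 and 24.7 CPM, a ratio of 1.30 (1.03 to 1.67). With 23.2 and 34.4 CPM and a ratio of 1.48 (0.808 to 3.03), the Flt3+ H2-Aa+ gate was the highest in PEP-619WW, with an interval that overlapped that of neutrophils. In neutrophil barcodes of no other gate Pvr gave 1.72 (0.766 to 4.38) and was no longer called, and Lyz2+ C1qa- barcodes of no other gate gave 1.204 (0.930 to 1.58).

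The study separated CD8a+ cDCs, CD8a- cDCs and pDCs, so the Flt3+ H2-Aa+ gate was split by marker genes into Ccr7+ Fscn1+ barcodes, Siglech+ barcodes (a pDC gene), Xcr1+ or Clec9a+ barcodes (genes of the CD8a+ lineage) and the rest. In the Xcr1+ or Clec9a+ barcodes Cd86 was lower in PEP-619WW in both runs. In run 1 it stood at 98.2 CPM (77.8 to 122, 79 UMIs) in PEP-WT and 27.7 CPM (14.3 to 48.3, 12 UMIs) in PEP-619WW, from 42 and 21 barcodes of which 30 and 8 carried a UMI, a ratio of 0.282 (0.140 to 0.520). In run 2 it stood at 164 CPM (117 to 225, 39 UMIs) in PEP-WT and 92.7 CPM (78.5 to 109, 152 UMIs) in PEP-619WW, from 20 and 145 barcodes, a ratio of 0.564 (0.394 to 0.824). The part of Hbb-bt, given above for the whole gate, in this ratio was not tested. Of the Xcr1+ or Clec9a+ barcodes, 20 of 42 and 10 of 21 in run 1 met no other gate, PEP-WT first. In run 2 these were 14 of 20 and 105 of 145, and no ratio was taken in them alone. The share of all genes called was not taken for any part of the Flt3+ H2-Aa+ gate. The Xcr1+ or Clec9a+ barcode with the most Cd86 gave 8 of the 39 PEP-WT UMIs of run 2. Cd274 in the same barcodes gave 0.773 (0.464 to 1.25) and 1.13 (0.444 to 3.67), and Lgals9 gave 0.479 (0.312 to 0.716) in run 1 and 2.99 (0.977 to 14.9) in run 2, from 3 and 62 UMIs.

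The Ccr7+ Fscn1+ barcodes, which carry genes of migrating mature dendritic cells, were few in run 1 (16 and 8), and no ratio was taken there. In run 2 (20 and 150 barcodes) they held more Cd274 than the Xcr1+ or Clec9a+ barcodes, 264 and 242 CPM against 21.1 and 23.8 CPM with separate intervals, and likewise 113 and 113 CPM against 12.6 and 18.9 CPM of Cd80 and 214 and 185 CPM against 29.5 and 18.9 CPM of Cd40. The genotype ratios in these barcodes were 0.914 (0.664 to 1.29) for Cd274, 1.00 (0.616 to 1.72) for Cd80, 1.08 (0.734 to 1.65) for Cd86 and 0.863 (0.604 to 1.27) for Cd40, and all 8 intervals held 1. Siglech+ barcodes numbered 19 and 9 in run 1 and 0 and 45 in run 2, too few for a ratio. The remaining 197 and 138 barcodes of run 1, of which 155 and 98 also met the B cell rule, gave 1.47 (1.14 to 1.91) for Cd274, 0.499 (0.334 to 0.734) for Cd40, 0.590 (0.481 to 0.722) for Lgals9 and 0.728 (0.510 to 1.03) for Cd86. In run 2 the remaining barcodes numbered 8 and 124, and no ratio was taken. No part was set apart by a marker of CD8a- cDCs, so the study's CD86 result on those cells has no direct counterpart here. For CD8a+ cDCs the study reported less PD-L1 protein and named no greater rise of CD86. The nearest part here, the Xcr1+ or Clec9a+ barcodes, gave Cd274 RNA ratios of 0.773 and 1.13, with intervals holding 1. Their Cd86 RNA ratios were 0.282 and 0.564, run 1 first.

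**Figure D5:**
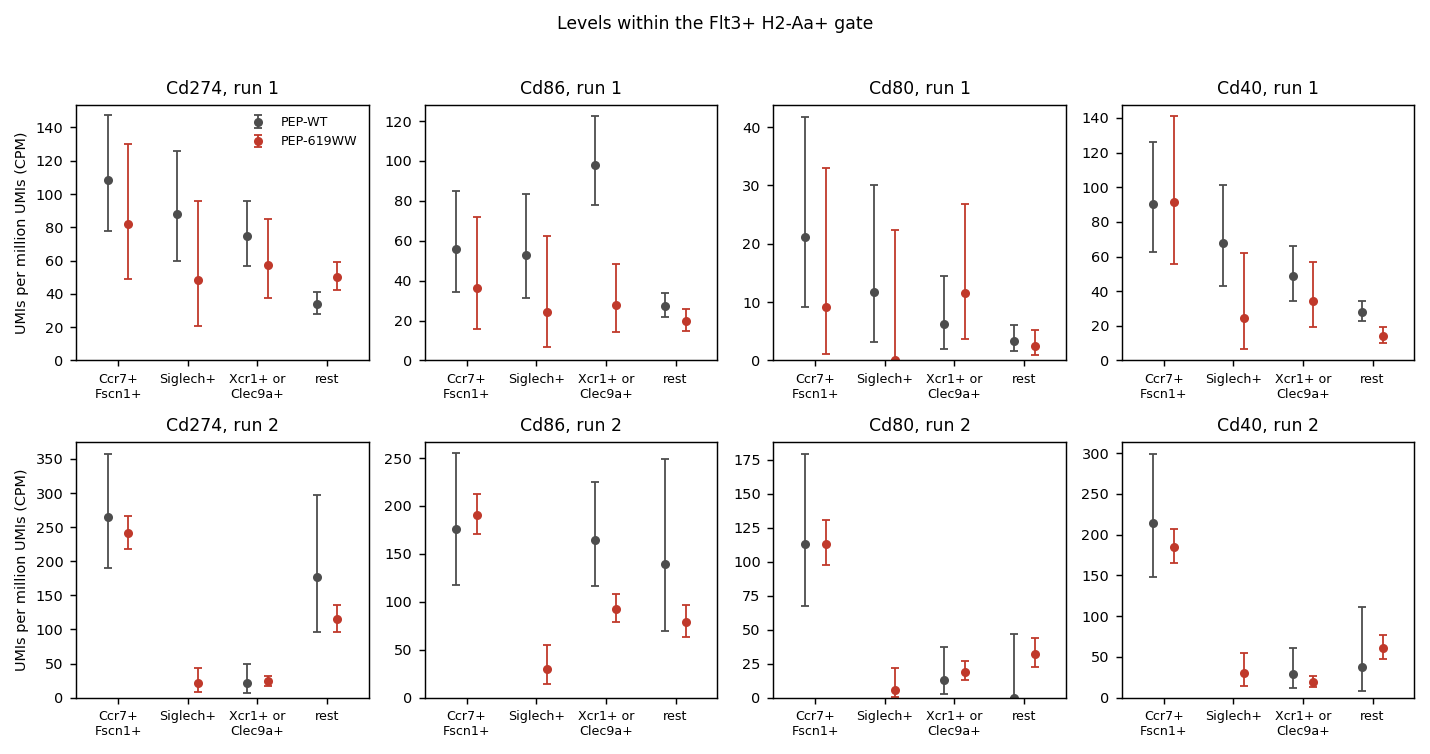
Levels in CPM (vertical axis, linear, from 0, scaled per panel) of Cd274, Cd86, Cd80 and Cd40 in 4 parts of the Flt3+ H2-Aa+ gate, PEP-WT in grey and PEP-619WW in red, with exact 95% Poisson intervals. Cd86 in Xcr1+ or Clec9a+ barcodes stood at 98.2 and 27.7 CPM in run 1 and 164 and 92.7 CPM in run 2, and Siglech+ has no PEP-WT barcode in run 2.

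Barcodes that met none of the 5 rules numbered 6240 and 4001 in run 1 and 2477 and 4603 in run 2 and included most T cell barcodes. The T cell rule itself keeps those barcodes out of the B cell and Flt3+ H2-Aa+ gates. In run 1, Pdcd1lg2 and Cd40 were called lower there, at 0.663 (0.543 to 0.808) and 0.613 (0.483 to 0.775), and Cd80 higher, at 1.74 (1.34 to 2.27) from 103 and 143 UMIs, where 5.69% of all genes were called lower and 4.14% higher. Over all barcodes of run 1 the ratio of Cd80 was 1.43 (1.22 to 1.67). In run 2, Pdcd1lg2, Cd80 and Icosl were called higher in barcodes of no gate, at 1.92 (1.67 to 2.22), 1.56 (1.33 to 1.85) and 3.22 (2.37 to 4.48), beside 14% lower and 30.4% higher.

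The share of barcodes with a UMI was compared after thinning each barcode to 1000 UMIs, since depth differed between gates and libraries, and barcodes under 1000 UMIs were left out (30 and 57 of the run 1 neutrophil gate, 92 and 64 of the B cell gate and 13 and 5 of the T cell barcodes, PEP-WT first). Cd274 was seen in 19.97% (17.2 to 23.0) of PEP-WT and 13.0% (10.8 to 15.5) of PEP-619WW barcodes of the run 1 neutrophil gate, and unthinned in 46.4% and 32.9% (median depths 3482 and 3664 UMIs). Thinned to 2000 UMIs, which left out more of the shallow barcodes, the shares were 21.5% and 21.6%, so no order is read from them. Cd86 was seen in 4.79% (4.30 to 5.32) of PEP-WT and 3.12% (2.53 to 3.79) of PEP-619WW barcodes of the B cell gate and Cd40 in 4.46% (3.98 to 4.97) of PEP-WT and 2.99% (2.41 to 3.65) of PEP-619WW barcodes, with unthinned shares of 17.0% and 14.7% and 15.0% and 12.3% at median depths of 2837 and 3496. As a background, T cell barcodes, which should lack Cd40, carried a Cd40 UMI in 0.145% and 0.121% after thinning and 1.15% and 0.719% before, at median depths of 4138 and 6546. Icosl was seen in 0 of the 1375 PEP-WT T cell barcodes, which allows a share with a UMI of up to 0.218% at this depth, and in 0.241% of the PEP-619WW ones, against 7.47% and 6.56% in B cells, and unthinned in 1.37% and 1.68% of T cell and 20.6% and 20.3% of B cell barcodes. The shares of both genes were higher in B cells than in T cells of both genotypes, thinned and unthinned. T cell barcodes had to lack Cd79a, while B cell barcodes did not have to lack the Cd3 genes. Unthinned, Pvr was seen in 5.84% and 6.82% of the run 1 Flt3+ H2-Aa+ barcodes at median depths of 13507 and 14940.5 UMIs and in 4.47% and 7.79% of the T cell barcodes, and its Flt3+ H2-Aa+ level of 4.21 and 4.46 CPM was not above the T cell level of 7.70 and 10.2 CPM. T cell barcodes of run 1 also held more Pvr than each of the 5 gates, with separate intervals in PEP-619WW. In PEP-WT the T cell interval overlapped those of the Flt3+ H2-Aa+ and macrophage gates. The T cell Lgals9 level of 83.5 and 89.0 CPM was, in PEP-619WW, above that of the Flt3+ H2-Aa+ and B cell gates with separate intervals.

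A further 15 costimulatory and inhibitory ligand genes were followed as a list: Tnfsf4, Tnfsf8, Tnfsf9, Tnfsf14, Tnfsf18, Cd70, Tnfrsf14, Cd276, Vtcn1, Vsir, Nectin2, Nectin3, Cd200, Cd48 and Ceacam1. In run 1 7 to 11 of them reached 20 UMIs in a gate, and calls were few: none in the Flt3+ H2-Aa+ and Lyz2+ C1qa- gates, 1 higher in macrophages, 2 higher in B cells (Vsir and Cd200), and 1 higher and 2 lower in neutrophils (Cd200 higher, Tnfsf14 and Cd48 lower), where 3.87% and 5.55% of all genes were called higher in macrophages and B cells and 3.63% higher and 8.5% lower in neutrophils. In run 2, 8 of 12 were called higher and 1 lower in macrophages, 4 of 11 higher and 1 lower in Lyz2+ C1qa- barcodes, 5 of 7 higher in neutrophils and 1 of 8, Cd48, higher in the Flt3+ H2-Aa+ gate, beside 18.9%, 20.6%, 22.5% and 12.8% of all genes called higher in these gates, in that order. The median log2 ratio of the list in run 2 macrophages was 0.77, beside 0.89 for the 8 members. Ceacam1, a ligand of TIM-3, was called higher in macrophages of both runs, at 1.71 (1.36 to 2.15) and 1.57 (1.33 to 1.84). Cd200, an inhibitory ligand, was called higher in neutrophils of both, at 2.83 (1.87 to 4.38) and 3.65 (1.42 to 11.97), while Tnfsf14 (LIGHT) was called lower there in run 1, 0.608 (0.445 to 0.825), and higher in run 2, 2.55 (1.85 to 3.58). Cd48, the gene of the list with the most UMIs, gave 0.869 (0.828 to 0.911) in run 1 B cells and 1.21 (1.16 to 1.27) in run 2 macrophages.

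The T cell side was read from 12 receptor genes in T cell barcodes (1388 PEP-WT and 834 PEP-619WW in run 1, 25 and 975 in run 2). In run 1, Havcr2 (TIM-3, the galectin-9 receptor), Tigit and Cd96 were called higher, with no receptor lower, where 4.26% of 11254 genes were called lower and 4.16% higher. Havcr2 stood at 44.1 CPM (39.7 to 48.9, 361 UMIs) in PEP-WT and 72.4 CPM (66.1 to 79.1, 488 UMIs) in PEP-619WW, a ratio of 1.64 (1.43 to 1.88). Tigit and Cd96, both receptors of CD155, gave 1.73 (1.22 to 2.48) and 1.51 (1.30 to 1.75). Ctla4 and Icos gave 1.41 (1.27 to 1.56) and 1.35 (1.24 to 1.46), inside the limit, and Cd28 and Pdcd1 gave 1.07 (0.990 to 1.17) and 0.896 (0.811 to 0.990). Cd27, with the most UMIs of the list in run 1, gave 1.00 (0.936 to 1.08). These genes, other than Havcr2 and Cd27, were named after their values were seen. In run 2, Ctla4 was called higher, at 2.59 (1.51 to 4.89), and Havcr2 and Pdcd1 lower, at 0.137 (0.0959 to 0.200) and 0.409 (0.290 to 0.594), beside 3.3% lower and 4.59% higher, on 25 PEP-WT barcodes. Tnfrsf4, with the most UMIs of the list there, gave 1.16 (0.901 to 1.51). Of the members themselves, 1 of 8 was called in T cell barcodes of run 1, Cd80, at 5.87 and 12.5 CPM and a ratio of 2.12 (1.47 to 3.09).

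For each member the genes with the closest pattern were taken by Pearson's r of log2(CPM + 1) over the 10 gate and genotype profiles of run 1, among 10569 genes with at least 200 UMIs, with the r over the 9 profiles of run 2 beside it. The profiles share libraries and some barcodes, so these values are a description only. The leading genes were Gbp8 (r = 0.97, run 2 r = -0.49), Tlr4 (r = 0.97, run 2 r = 0.41) and Itm2b (r = 0.96, run 2 r = -0.37) for Cd274, and Prmt2 (r = 0.95, run 2 r = -0.67), Prpsap2 (r = 0.94, run 2 r = -0.23) and Plpp3 (r = 0.93, run 2 r = -0.71) for Pdcd1lg2. For Cd80 they were Arrb2 (r = 0.98, run 2 r = 0.10), Mapk13 (r = 0.98, run 2 r = 0.90) and Lpcat4 (r = 0.98, run 2 r = 0.51), and for Cd86 Leng1 (r = 0.96, run 2 r = 0.72), Tnfsf8 (r = 0.94, run 2 r = 0.10) and Commd3 (r = 0.93, run 2 r = 0.02). Cd40 was followed by Tnfsf8 (r = 0.96, run 2 r = 0.18), Tefm (r = 0.95, run 2 r = 0.38) and Ado (r = 0.94, run 2 r = -0.47), Icosl by Cd55 (r = 0.98, run 2 r = 0.67), Itpr2 (r = 0.98, run 2 r = 0.24) and Senp7 (r = 0.98, run 2 r = 0.64), Lgals9 by Hspa1a (r = 0.97, run 2 r = 0.83), Irf7 (r = 0.97, run 2 r = 0.50) and Rnf213 (r = 0.96, run 2 r = 0.83) and Pvr by Nudt14 (r = 0.93, run 2 r = 0.47), Pccb (r = 0.92, run 2 r = -0.80) and Abcc1 (r = 0.91, run 2 r = -0.27). Tnfsf8 stood among the 3 closest genes of both Cd86 and Cd40. Of these 24 matches, Mapk13 with Cd80 and Hspa1a and Rnf213 with Lgals9 had an r above 0.8 in run 2.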

How the data were processed

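The series holds 4 count tables of UMIs per gene and barcode, 1 per genotype and run, with 32285 genes. The authors aligned the reads to mm10 with Cell Ranger, version 6.0.0 in the submitters' processing notes and another version in the study's methods, and the deposited counts are not normalized. No column belonged to other samples.

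UMIs of each gene were summed over the barcodes of a gate and divided by all UMIs of those barcodes. Barcodes could meet several gates, no cells were filtered and doublets were kept, apart from the alternatives. Each genotype has 1 library per run from pooled mice, so no test was run. Intervals are exact at 95% and cover counting error only. The members, lists and rules were chosen with earlier results of these data known. All 8 members are described. Of the lists, genes called in both runs or with the most UMIs were named, others only after their values were seen, and for each member the 3 genes with the highest correlation. Calculations used Python 3.11.15, numpy 2.4.6, scipy 1.17.1 and pandas 2.3.3. The intervals were tested on simulated Poisson counts, which hold no spread between cells or mice. Promoter windows are from RefSeq (GRCm38.p6) and gene spans from the GRCm38 annotation. Alternatives changed the fold limit, the UMI minimum, the gates, the barcodes kept, the denominator and the thinning.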

Additional observations from a re-analysis of the deposited data

Results flagged for a closer look

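Of the 32 pairs of member and gate with a ratio in both runs, 9 had counting intervals on opposite sides of 1, all lower in PEP-619WW in run 1 and higher in run 2. They are given as the run 2 minus the run 1 log2 ratio, with the ratios of run 1 and run 2 in parentheses. The share of all genes with such intervals was not taken. In the Lyz2+ C1qa-, macrophage and neutrophil gates the median log2 ratio of all genes was -0.10, -0.02 and -0.11 in run 1. In run 2 this median was 0.24, 0.11 and 0.21, so the shared direction is not read as particular to the members. With 1 library per genotype and run, the difference between the runs was not tested.

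Cd86 differed by 1.67 (log2 ratios -0.68 and 0.99) in macrophages, 1.32 (log2 ratios -0.77 and 0.54) in neutrophils and 0.94 (log2 ratios -0.65 and 0.29) in Lyz2+ C1qa- barcodes. Cd40 differed by 1.37 (log2 ratios -0.54 and 0.83) in Lyz2+ C1qa- barcodes and 0.96 (log2 ratios -0.60 and 0.36) in macrophages. Lgals9 differed by 1.14 (log2 ratios -0.73 and 0.42) in neutrophils, 1.08 (log2 ratios -0.29 and 0.78) in macrophages and 1.06 (log2 ratios -0.58 and 0.49) in Lyz2+ C1qa- barcodes. Cd274 differed by 0.88 (log2 ratios -0.29 and 0.59) in neutrophils. The runs differed in cell content as well: the macrophage gate held 598 and 494 barcodes in run 1 and 5839 and 1968 in run 2, PEP-WT first, and the part of this in the differences was not tested. In barcodes of exactly 1 gate 2 of the 9 pairs still had intervals on opposite sides, Cd86 in macrophages, with ratios of 0.626 (0.504 to 0.774) and 2.00 (1.85 to 2.16), and Cd40 in macrophages, with 0.610 (0.479 to 0.774) and 1.26 (1.13 to 1.42). Without the barcode richest in the gene in each library as well, 4 of the 9 did, these and, in Lyz2+ C1qa- barcodes, Cd40 (0.704 (0.504 to 0.972) and 1.77 (1.33 to 2.40)) and Lgals9 (0.631 (0.532 to 0.746) and 1.41 (1.24 to 1.61)), where 1 barcode held 110 of the 303 PEP-619WW UMIs of run 1.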

How the results depend on the processing

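Of 870 log2 ratios recomputed under alternatives, 804 stayed within the counting interval of the reported value, 66 moved beyond it and 0 of the called ones changed direction. A fold limit of 2 left 1 of 11 pairs lower in run 1 and 5 of 13 higher in run 2. Under the other alternatives, apart from those named here, these counts ran from 8 to 14 and from 10 to 15, the highest without the barcode richest in the member in each library, which added Lgals9 in Lyz2+ C1qa- barcodes, Pdcd1lg2 in macrophages and Cd86 in B cells in run 1, and Cd86 and Cd40 in neutrophils in run 2. Averaging the share of UMIs over barcodes, which has no counting interval and was called on fold and UMI number alone, called 6 pairs higher in run 1 where 0 were: Icosl and Pvr in the Flt3+ H2-Aa+ gate, and Pdcd1lg2 and Pvr in Lyz2+ C1qa- barcodes and neutrophils. With stricter gates, and after dividing ratios by the median of all genes, 1 pair was called lower in run 2 where 0 were, Cd86 in the Flt3+ H2-Aa+ gate. Of 144 differences in the share of barcodes with a UMI, PEP-619WW minus PEP-WT in percentage points, 97 stayed, 45 moved and 2 reversed: Cd274 in run 1 neutrophils thinned to 2000 UMIs (0.103) and Lgals9 in run 1 B cells with no thinning (0.512). The causes were not tested. Median-ratio scaling, and leaving out shared barcode sequences, Folr2 barcodes, Hbb-bt barcodes or the richest barcodes, were chosen after seeing the data. No paired analysis was possible because each genotype has 1 library per run and no test was run. In run 1 Pvr, Cd80 and, in the gates other than B cells, Pdcd1lg2 rest on few UMIs. The PEP-WT Flt3+ H2-Aa+ gate of run 2 rests on 48 barcodes, and no interval covers the spread between cells or mice.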
